A study of Mus musculus with 4 samples.

Results

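The histone genes read by the arrays were examined in mouse embryonic fibroblasts (MEFs) at low and high cell density. Members were all non-control probes whose gene name begins with Hist1h, Hist2h, Hist3h, H1f, H2af or H3f. The rule found 69 probes for 48 genes among 41174 probes. Of these, 45 probes for 35 genes carry a Hist name and are called cluster genes, and 24 probes for 13 genes carry an H1f, H2af or H3f name and are called replacement variants, although a few of the latter (H1foo and H1fnt among them) are linker histones of germ cells.

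All cells were C57BL/6J fibroblasts, labelled Lats2-/- (KO) or Lats2+/+ (WT). The product of Lats2 is a Hippo pathway kinase, and the mutant fibroblasts came from mice of an earlier study. The age of the embryos is not given in the sources used here. The low density cultures were harvested after 48 h, still subconfluent, and the high density cultures after 3 to 5 days, so time in culture changed together with density. On each of 4 two-colour arrays a high density RNA was hybridised against a low density RNA of the same genotype label, with the Cy3 and Cy5 dyes exchanged on the second array of each label. The exchange was taken as a technical repeat, which leaves 1 replicate per label and density, and spreads between arrays or dyes given here are technical.

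Nucleosomes hold H2A, H2B, H3 and H4, and H1 binds the linker DNA between them. The cluster genes lie close together, are transcribed in S phase together with DNA replication, and give messages that end in a stem-loop rather than a poly(A) tail, cut with the help of the stem-loop binding protein. Replacement variants are single genes, are made throughout the cell cycle, and give polyadenylated messages. Several cluster genes, some H1 and H2B genes among them, are also known to give polyadenylated messages, in particular in cells that have left the cell cycle. The labelling started from an oligo-dT primer and therefore read polyadenylated RNA. A change in the amount of a cluster message and a change in the share of it that carries a poly(A) tail cannot be told apart in these data, and neither can fewer expressing cells and less RNA per cell.

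At most probes of the targeted gene the arrays went against their genotype label. Of 4 Lats2 probes, 3 were higher where the label said KO, at log2 ratios over WT of 1.19 to 1.39 at low density and 0.91 to 1.49 at high density, and the other was at -0.63 and -1.26. Where these probes lie relative to the deleted part is not given in the sources used here. The paper gives a western blot for the knockout in its Lats2 KO MEFs, and does not say that it used the cultures of these arrays. Genotype names below therefore mean the label. All 9 fibroblast markers were well above background in all 8 channels. Of 4 macrophage markers, Ptprc and Emr1 were so in no channel, Cd68 in 8 and Csf1r in 6, the latter pair at mean levels of 6.67 and 6.79, near background. Of 4 endothelial markers, Pecam1 and Cdh5 were so in no channel, Kdr in 2 and Tek in 1, and of 3 epithelial markers on the array, Cdh1 and Krt8 in no channel and Krt18 in 2. Per channel, 52.8% to 67.7% of features exceeded background clearly by the scanner software's flag, which is what well above background means here. Both WT arrays lay on 1 slide scanned on 1 day, and the KO arrays on 2 slides scanned on 2 days. Slide and scan day therefore cannot be told apart from genotype label in any contrast between labels. The spread between the KO arrays, unlike that in WT, also crosses slides and days.

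In the following, a level is the normalized log2 intensity of a probe, given for Cy3 and then for Cy5. A probe was tested where it was well above background on both arrays, or in both dyes, on at least one side of a contrast. It was called where the mean log2 ratio reached a size of 1.0 (2-fold) and the arrays, or dyes, did not differ in sign, and "rose" and "fell" are used of called probes only. Of the 69 member probes, 53 passed that flag in all 8 channels, and 12 could not be tested for density in WT, 9 for density in KO, 7 for genotype at low density, 8 for genotype at high density and 15 for the difference of the density effects.

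With density, the classes of cluster genes moved in opposite directions in cells labelled WT. Of the cluster genes tested, most H2A and H4 genes fell, 5 of 6 H2B genes rose (of 10 in all), and H3 genes stayed within 0.16 of no change. Of 57 member probes tested, 26 (45.6%) were called, against 13.3% of all 22591 probes tested. Of the members, 11 rose and 15 fell, where 7.63% and 5.71% of all probes did. The split of these calls over all probes depends on the scaling, as 57.2% of them were rises after loess and 43.9% after median centring of each array. Of the members, 18 were called after median centring, against 14.1% of all probes. Over genes, each represented by its brightest probe, the median log2 ratio was -1.23 for H2A (10 tested), -1.19 for H4 (5), 1.09 for H2B (6), 0.14 for H3 (3) and -0.81 for H1 (5), beside 0.06 for all 14880 genes tested. The median over all cluster genes, -0.74, mixes these classes. It came to -0.33 when the probes of a gene were averaged and to -0.12 without the filter on dim probes.

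**Figure D1:**
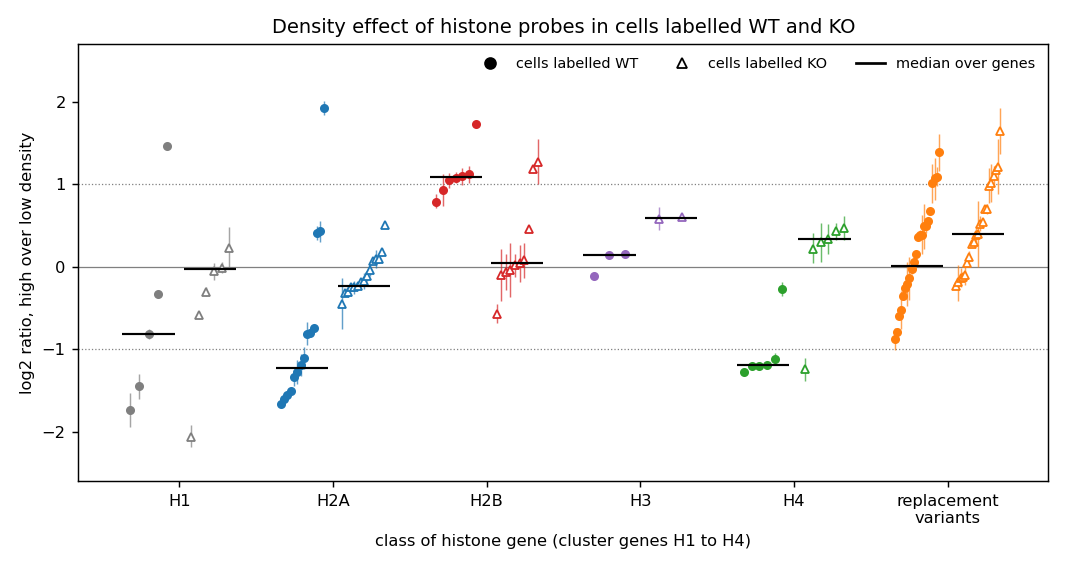
Log2 ratio of high over low density for each tested histone probe (points), in cells labelled WT (filled circles) and KO (open triangles), by class. Thin lines join the values of both arrays, black bars are medians over genes, and dotted lines mark the 2-fold size; in WT the H2A and H4 medians lie at -1.23 and -1.19 and the H2B median at 1.09, and in KO at -0.23, 0.34 and 0.04, of which the H4 and H2B values turned negative under median centring (-0.06 and -0.35), where the WT H2B median also came to 0.90, below 2-fold.

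Hist1h2ak (now H2ac15; probe at chr13:21761233-21761292, mm8) is a core H2A gene. It read 13.59 and 13.49 at low density and 11.94 and 11.94 at high density in WT, a log2 ratio of -1.60. In KO it read 12.31 and 12.11, then 11.89 and 12.03, a ratio of -0.25. The WT low density culture stood alone, and the readings of the other 3 conditions ranged from 11.89 to 12.31.

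In other H2A genes the WT low density culture also stood highest, while the order of the other conditions varied. Hist1h2ai (chr13:21794624-21794683) read 12.62 and 12.50 at low and 10.99 and 11.02 at high density in WT, and 11.43 and 11.20, then 10.87 and 11.14 in KO. Hist1h2ab (chr13:23758988-23759047) read 11.41 and 11.47, then 9.94 and 9.91 in WT, and 10.37 and 10.66, then 9.90 and 10.23 in KO. The brighter Hist1h2af probe (chr13:23541704-23541763) read 17.07 and 17.04, then 15.60 and 15.82 in WT, and 15.81 and 15.86, then 15.99 and 16.05 in KO. In each of them both WT low density readings were the highest of the 8. The WT density ratios were -1.55 for Hist1h2ai, -1.51 for Hist1h2ab, -1.34 and -1.66 for the Hist1h2af probes, -1.28 for Hist1h2aa and -1.19 and -1.11 for the Hist2h2ac probes. With Hist1h2ak these were the 8 H2A probes that fell in WT. The Hist2h2ac probe at -1.11 and the Hist1h2ai probe are annotated on the strand opposite to the RefSeq start of their gene. The former lies 0.25 kb from the Hist2h2aa1 probe. Which copy each of them reads is therefore uncertain. Hist2h2aa1 was at -0.80 in WT and -0.18 in KO, and Hist1h2ac was near background in most channels.

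Some H2A probes did not follow. Hist1h2ae read 6.74 and 6.44, then 6.93 and 7.07 in WT, and 6.87 and 6.89, then 6.72 and 6.54 in KO, dim throughout. The WT density ratio of Hist1h2ae, 0.41, came to 0.63 with a smaller offset and 1.11 with the processed signals, opposite in sign to most of the class. Hist2h2aa2, also dim, read 6.12 and 6.16, then 6.46 and 6.67 in WT, and 6.70 and 6.94, then 6.60 and 6.40 in KO. Its low density WT signal was not well above background, so that high over low density was at least 1.25-fold. The probes of Hist3h2a, the lone H2A gene of the chromosome 11 cluster, disagreed. The brightest and one other gave -0.74 and -0.81 with density in WT, the latter from a probe annotated on the minus strand, opposite to the others, while a probe about 0.57 kb further along gave 1.92 in WT and 0.51 in KO, and which message the last one reads is not given by the annotation used here.

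Cluster H4 genes fell in WT at 5 of 6 probes. Hist1h4f (chr13:23558845-23558904) read 14.43 and 14.38 at low and 13.16 and 13.26 at high density in WT, a ratio of -1.19. In KO it read 13.25 and 13.39, then 13.72 and 13.86, a ratio of 0.47 (-0.04 under median centring). The brighter Hist1h4d probe (chr13:23589261-23589320) read 14.38 and 14.23, then 13.02 and 13.17 in WT, and 13.29 and 13.13, then 13.46 and 13.82 in KO. For both genes all 4 KO readings lay below the WT low density readings, and the high density KO readings lay above the high density WT ones. Hist1h4a, Hist2h4 and the other Hist1h4d probe had WT ratios of -1.20, -1.12 and -1.27. Hist1h4i differed from the rest, at 9.96 and 9.92, then 9.74 and 9.60 in WT (ratio -0.27), and 10.42 and 10.38, then 9.28 and 9.04 in KO (ratio -1.24). The annotated interval of its probe covers only a few bases, so its match to that gene is uncertain.

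Cluster H2B genes rose with density in WT, at 5 of 7 probes, and none fell. Under median centring Hist1h2bc alone still reached 2-fold, the other 4 coming to between 0.89 and 0.92 (Hist1h2bm and Hist1h2bk), while all 8 falling H2A and all 5 falling H4 probes stayed called. Hist1h2bc (now H2bc4; chr13:23699815-23699874) read 9.05 and 9.09 at low and 10.79 and 10.80 at high density in WT, a ratio of 1.73. In KO it read 12.40 and 12.48, then 12.07 and 12.62, a ratio of -0.10 with opposite signs on the arrays. The conditions thus ordered as WT low, WT high, then both KO cultures, whose readings overlapped.

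Hist1h2bm (chr13:21729735-21729794) read 10.36 and 10.45, then 11.44 and 11.56 in WT, and 12.65 and 12.69, then 12.55 and 12.94 in KO. The brighter Hist1h2bk probe (chr13:22043524-22043583) read 10.28 and 10.35, then 11.37 and 11.49 in WT, and 12.56 and 12.56, then 12.43 and 12.72 in KO. Hist1h2ba, a testis H2B, read 8.83 and 8.91, then 9.86 and 9.97 in WT, and 11.13 and 11.20, then 10.93 and 11.28 in KO. These H2B genes shared one pattern, with WT density ratios of 1.10, 1.12 and 1.05 and KO ratios of 0.08, 0.02 and -0.06.

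Hist3h2bb, annotated as a transcribed pseudogene in current RefSeq, had the same pattern, with 10.21 and 10.17, then 11.18 and 11.37 in WT, and 12.61 and 12.52, then 12.34 and 12.87 in KO. Coding sequences of cluster H2A, H2B, H3 or H4 genes of one class are closely alike, while those of the H1 genes differ more. Probes of different core histone copies, and those of testis genes and the pseudogene, could therefore read each other's messages, and whether they do was not tested. The counts over probes may for the same reason not be counts of independent genes.

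Outside this pattern, Hist2h2be, an H2B gene of the chromosome 3 cluster, had a ratio of 0.79 in WT and 0.46 in KO. The WT ratio of Hist2h2be passed 2-fold with a smaller offset (1.01) and with the processed signals (1.24). Hist2h2bb read 6.44 and 6.37, then 6.42 and 6.40 in WT, and 7.37 and 7.29, then 8.50 and 8.51 in KO. Hist3h2ba read 6.03 and 5.99, then 6.07 and 6.24 in WT, and 6.92 and 6.60, then 8.15 and 7.92 in KO. Both were near background in WT and rose with density in KO, by 1.18 and 1.27. Hist1h2bp was dim as well, with 6.24 and 6.25, then 6.31 and 5.94 in WT, and 6.91 and 7.02, then 6.58 and 6.22 in KO, and Hist1h2be could be tested in no contrast.

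The H1 genes were split. Hist1h1b (H1.5; chr13:21787519-21787578) read 11.53 and 11.64 at low and 9.69 and 10.00 at high density in WT, a ratio of -1.74, which was the lowest of all member probes tested in WT. In KO it read 9.75 and 9.58, then 10.06 and 9.73. Hist1h1e (H1.4; chr13:23629303-23629362) read 12.03 and 11.96, then 10.67 and 10.43 in WT (ratio -1.45), and 11.10 and 11.28, then 11.12 and 11.16 in KO. Both read highest in WT at low density. The KO readings lay above the high density WT ones for Hist1h1e and on either side of them for Hist1h1b.

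Hist1h1c (H1.2; chr13:23747614-23747673) went the other way, with 9.90 and 10.03 at low and 11.46 and 11.39 at high density in WT, a ratio of 1.46. In KO it read 12.66 and 12.92, then 12.84 and 12.72, a ratio of -0.01 with opposite signs on the arrays. This is the order of the H2B genes. Hist1h1a was dim, at 7.41 and 7.48, then 7.20 and 7.04 in WT, and 6.58 and 6.37, then 6.42 and 6.31 in KO, and Hist1h1t, of the testis, could be tested in no contrast.

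The probes of Hist1h1d (H1.3) disagreed. The first (chr13:23563048-23563107) read 8.34 and 8.28, then 7.41 and 7.58 in WT, and 7.99 and 7.94, then 7.39 and 7.36 in KO. The second (chr13:23564799-23564858) read 5.95 and 6.08, then 6.13 and 6.43 in WT, where it was not well above background, and 8.85 and 9.37, then 7.18 and 6.93 in KO. At low density this probe was at least 7.53-fold higher in KO, and it fell with density there, at a log2 ratio of -2.06.

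The H3 genes changed least in WT. Hist1h3d (chr13:23583575-23583634) read 14.41 and 14.41, then 14.51 and 14.58 in WT, and 13.78 and 13.68, then 14.25 and 14.39 in KO. Hist2h3c1 (chr3:96332639-96332698) read 14.87 and 14.86, then 15.05 and 14.99 in WT, and 14.32 and 14.26, then 14.99 and 14.76 in KO. Their density ratios were 0.14 and 0.16 in WT and 0.60 and 0.58 in KO, none of them called. Hist1h3a was dim, at 6.73 and 6.64, then 6.58 and 6.57 in WT, and 6.10 and 6.17, then 6.09 and 6.07 in KO.

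**Figure D2:**
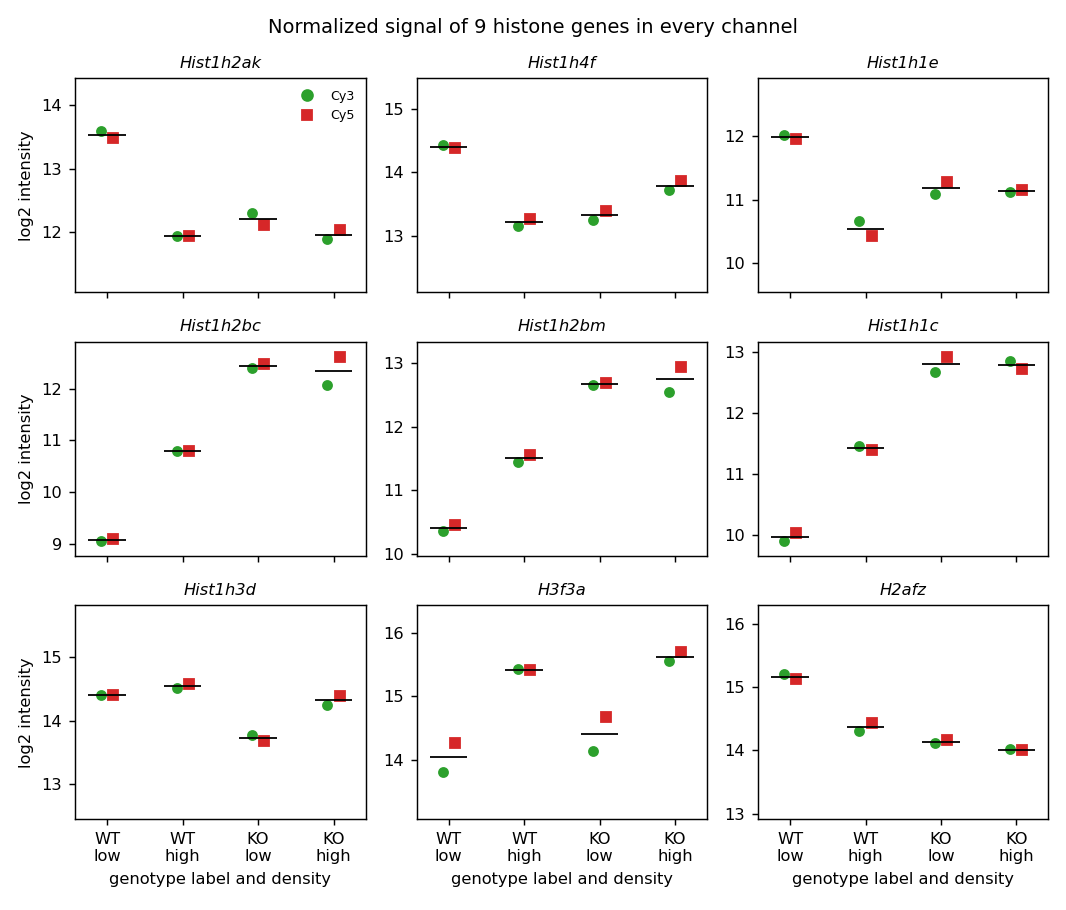
Normalized log2 intensity of 9 histone genes in each condition (genotype label and density), with Cy3 as circles, Cy5 as squares and their mean as a bar; the panels have axes of their own. Hist1h2ak, Hist1h4f and Hist1h1e are highest in WT at low density (13.59, 14.43 and 12.03 in Cy3), and Hist1h2bc, Hist1h2bm and Hist1h1c are lowest there (9.05, 10.36 and 9.90).

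Probes of both patterns are annotated side by side on chromosome 13. Since copies may not be told apart, the positions are those of the probes, and a ratio may include messages of other copies of the class. The members of the chromosome 13 cluster span 2.21 Mb (mm8), and along it rising H2B and H1c probes are interspersed with falling H2A, H4, H1b and H1e probes. Hist1h1c at 1.46 and Hist1h2ab at -1.51 are 11.4 kb apart, and the probes of Hist1h2ba at 1.05 and Hist1h2aa at -1.28 are 0.85 kb apart.

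**Figure D3:**
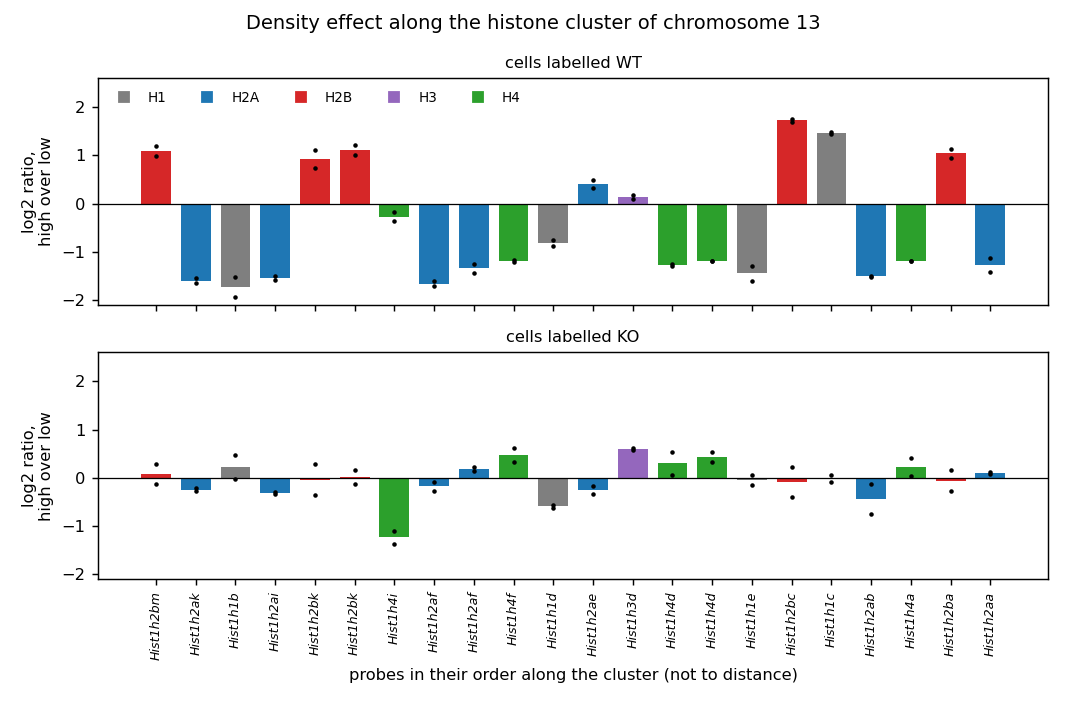
Log2 ratio of high over low density for the chromosome 13 cluster probes tested in both labels (bars, coloured by class; dots are the single arrays), in their order along the chromosome and not to distance. In WT (top) bars of 0.93 or more (H2B and Hist1h1c) stand among bars of -1.19 or less (most H2A and H4, Hist1h1b and Hist1h1e), and in KO (bottom) Hist1h4i at -1.24 is the one called probe.

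Hist1h2aa and Hist1h2ba start on opposite strands 281 bases apart (GRCm38.p6), so that 1 stretch of DNA precedes both genes. The 150 bases before the start of this pair are printed first, because probes annotated to this pair gave opposite directions in WT, followed by those of genes whose probes gave each pattern. Whether the messages read came from these very genes, of which the pair is known for the testis, was not tested. Capitals mark the CCAAT box (searched as CCAAT), the TATA box (as TATAAA) and the octamer that binds Oct factors (as ATTTGCAT), each on either strand, so that an octamer on the other strand appears as ATGCAAAT. No motif contains another. All are from RefSeq, where 41 of the 48 genes had a promoter sequence.
Hist1h2aa (chr13:23934287-23934436, plus strand): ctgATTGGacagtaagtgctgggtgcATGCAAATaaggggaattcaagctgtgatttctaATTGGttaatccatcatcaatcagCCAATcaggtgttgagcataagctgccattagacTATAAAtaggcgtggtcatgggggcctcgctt
Hist1h2ba (chr13:23934157-23934306, minus strand): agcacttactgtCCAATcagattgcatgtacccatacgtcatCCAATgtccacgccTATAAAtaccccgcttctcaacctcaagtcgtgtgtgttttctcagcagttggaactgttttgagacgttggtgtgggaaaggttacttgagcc
Hist1h2ak (chr13:21753913-21754062, minus strand): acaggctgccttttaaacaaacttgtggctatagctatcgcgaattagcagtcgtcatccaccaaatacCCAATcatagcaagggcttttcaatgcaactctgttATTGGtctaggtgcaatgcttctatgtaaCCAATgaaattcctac
Hist1h4d (chr13:23581418-23581567, plus strand): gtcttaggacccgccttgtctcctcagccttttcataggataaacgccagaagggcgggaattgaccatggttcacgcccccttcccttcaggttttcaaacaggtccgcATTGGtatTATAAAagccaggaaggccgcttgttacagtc
Hist1h1e (chr13:23622559-23622708, minus strand): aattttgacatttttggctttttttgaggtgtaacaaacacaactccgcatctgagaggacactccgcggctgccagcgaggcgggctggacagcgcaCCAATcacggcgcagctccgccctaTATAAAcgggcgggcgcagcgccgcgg
Hist1h2bm (chr13:21721894-21722043, plus strand): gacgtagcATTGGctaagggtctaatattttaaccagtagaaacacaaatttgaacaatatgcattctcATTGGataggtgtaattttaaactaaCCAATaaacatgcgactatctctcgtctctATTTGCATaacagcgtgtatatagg
Hist1h1c (chr13:23738657-23738806, plus strand): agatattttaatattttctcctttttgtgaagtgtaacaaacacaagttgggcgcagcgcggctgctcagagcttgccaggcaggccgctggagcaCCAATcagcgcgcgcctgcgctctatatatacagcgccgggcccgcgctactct
H3f3a (chr1:180813606-180813755, minus strand): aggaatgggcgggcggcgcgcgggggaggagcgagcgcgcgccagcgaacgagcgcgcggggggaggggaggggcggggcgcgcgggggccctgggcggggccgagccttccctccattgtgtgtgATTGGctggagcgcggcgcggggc

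In the 250 bases before the start, CCAAT was found on either strand in 90.3% of 31 cluster gene promoters and in 33.8% of all 32851 promoters. TATAAA was in 54.8% and 12.4%, and the octamer in 35.5% and 1.6%. The octamer was in 6 of 11 H2A and 5 of 8 H2B promoters, which are the falling and the rising class, and these were all the cluster promoters that held it. Of the 11 replacement variant promoters, 6 held CCAAT, and H3f3b alone held TATAAA and the octamer. Hist1h1c and Hist1h1e, whose probes moved in opposite directions, both hold CCAAT near the start. A match of letters is a description of the sequence only.

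In cells labelled KO, few histone probes were called for density. Of 60 member probes tested, 9 (15.0%) were called, against 9.63% of all 23596 probes, and 7 rose and 2 fell, where 5.90% and 3.73% of all probes did (61.3% of all calls were rises, and 40.4% after median centring). The members' share depends on the processing, with 5 called after median centring, against 10.8% of all probes, and 14 with the processed signals, against 20.5%. Among cluster probes 4 of 39 were called. The probes that rose were Hist2h2bb, Hist3h2ba and the replacement variant probes of H3f3a, H3f3b, H2afv and H2afy3, and those that fell were Hist1h4i and the second Hist1h1d probe. The gene medians were -0.23 for H2A, 0.34 for H4 and 0.04 for H2B. Median centring, which moved the median of all probes from 0.013 to -0.092, took them to -0.57, -0.06 and -0.35. From either KO array alone, H2A was at -0.17 and -0.23, H4 at 0.16 and 0.52, and H2B at -0.14 and 0.26, so that the H2B value has no settled sign. The median of all genes tested was 0.06.

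The density effect in KO less that in WT reached 2-fold, in the same direction for both dye orientations, at 23 of 54 member probes (42.6%), against 7.99% of all 21546. It was positive at 16 and negative at 7, where 3.77% and 4.22% of all probes were. The positive ones were 8 H2A and 5 H4 probes, Hist1h1b (1.97), Hist1h1e (1.39) and H2afy3 (1.16). After median centring 5 of the 8 H2A calls and all 5 H4 calls were kept, and the H2afy3 call was lost. The negative ones were 5 H2B probes, led by Hist1h2bc (-1.82), with Hist1h1c (-1.48) and the discordant Hist3h2a probe (-1.41). With 1 replicate per label, this difference could not be tested. Its median was 1.15 for H2A, 1.46 for H4, -1.07 for H2B and 0.44 for the 2 H3 genes tested, beside 0.02 for all genes.

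Between the labels, the low density cultures differed most. Of 62 member probes tested, 27 (43.5%) were called, 9 of them higher and 18 lower in KO, against 13.9% of all 23339 probes (6.87% higher and 7.05% lower). Without scaling between arrays 17 members were called, against 15.7% of all probes. The median of all probes then moved from 0.038 to 0.268, and 72.3% of all calls were higher in KO in place of 49.3%. The H2B median was 2.25, with 6 of 10 probes higher and none lower, and ranged up to Hist1h2bc at 3.37. Hist1h1c was at 2.83. The H2A median was -0.92, with 7 of 15 probes lower and the discordant Hist3h2a probe higher (2.05). The H4 median was -1.05, with 4 of 6 probes lower. After median centring none of these 4 H4 probes and 3 of the 7 H2A probes still reached the 2-fold rule, while all 6 H2B calls did. Among the H1 genes, Hist1h1b was at -1.91. All 3 H3 genes lay between -0.68 and -0.55. The other called members were the second Hist1h1d probe, known there only as at least 7.53-fold higher, and 6 replacement variant probes, all lower. The median of all genes tested was 0.03.

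At high density the H2A and H4 differences were under 2-fold, while H2B genes were higher in KO here as well. Of 61 member probes tested, 10 (16.4%) were called, against 13.0% of all 23617, with 9 higher and 1 lower where 6.42% and 6.61% of all probes were. Without scaling between arrays 70.2% of all calls were higher in KO in place of 49.3%. The H2B median was 1.25, with 8 of 10 probes higher. Of these 8, those well above background in every channel ranged from Hist1h2bk at 1.09 to Hist1h2bc at 1.54, and Hist1h1c was at 1.36. Hist2h2bb was at 2.10, over a WT signal near background that passed the flag in Cy5 only. The Hist3h2ba signal, not well above background in WT, was at least 3.46-fold higher in KO. No H2A, H3 or H4 probe was called. The H2A median was 0.11 (-0.01 under median centring, and 0.03 to 0.19 with 1 array left out) and the H4 median 0.54.

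**Figure D4:**
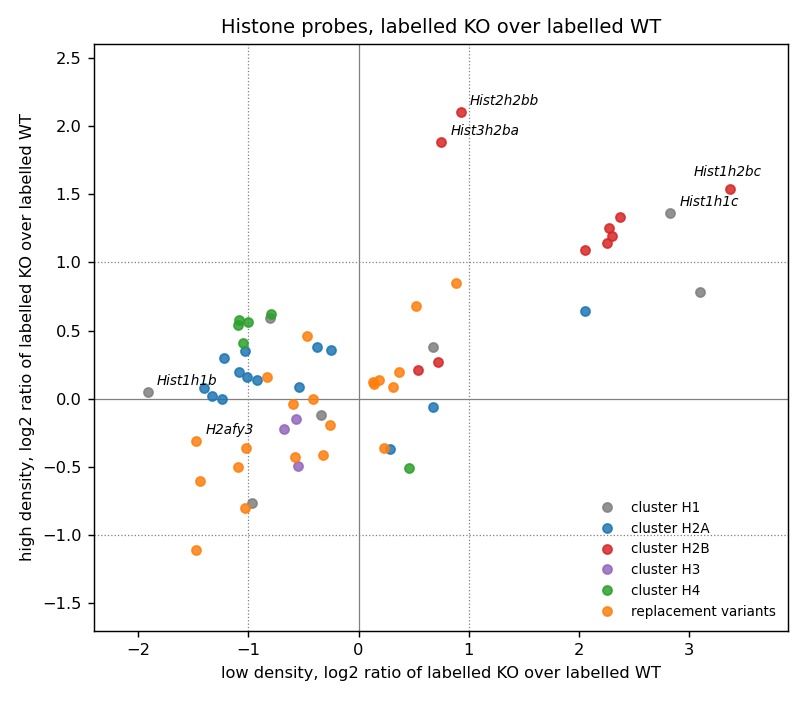
Log2 ratio of labelled KO over labelled WT at low density (x axis) and high density (y axis) for the histone probes tested at both, coloured by class, with dotted lines at the 2-fold size. Most H2B probes and Hist1h1c lie at the upper right (Hist1h2bc at 3.37 and 1.54), the falling H2A probes at the left near 0 on the y axis (Hist1h2ak at -1.33 and 0.02), and most H4 probes at the left above them (Hist1h4f at -1.08 and 0.58).

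The replacement variants did not move as one class. In WT, 4 of 22 probes rose and none fell (18.2% called), against 13.3% of all probes called and 7.63% that rose, and their gene median was 0.01 (-0.16 with the processed signals). In KO, 5 of 21 rose and none fell, against 5.90% and 3.73% of all probes. The KO median of 0.40 came to 0.11 under median centring, and to 0.53 and 0.19 from either KO array alone. H3f3a, which with H3f3b encodes the replacement histone H3.3, read 13.80 and 14.27 at low and 15.43 and 15.41 at high density in WT (ratio 1.39), and 14.14 and 14.67, then 15.55 and 15.69 in KO (1.21). Its other probes gave 1.07 and 1.01 in WT and 1.01 and 0.98 in KO. In both labels every high density reading lay above every low density reading, and the labels differed by at most 0.37 at either density.

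H3f3b read 15.26 and 15.34, then 16.06 and 15.91 in WT (0.68), and 14.66 and 15.12, then 16.34 and 15.64 in KO (1.10). Its other probes gave 0.15 and 0.38 in WT and 0.70 and 0.30 in KO. H2afv, which encodes an H2A.Z, read 14.04 and 14.08, then 15.29 and 15.01 in WT (1.09), and 13.70 and 13.89, then 15.09 and 14.84 in KO (1.17). H3f3a and H2afv were thus called in both labels, but not after median centring, where the H2afv ratios came to 0.82 and 0.58 and that of the brightest H3f3a probe in KO to 0.57. Under that scaling none of the 4 replacement variant calls in WT and 1 of the 5 in KO (H2afy3) was kept. No cluster probe was called in both, though 3 of the 4 called in KO could not be tested in WT.

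H2afz, the other H2A.Z gene, differed from H2afv. It read 15.20 and 15.12, then 14.30 and 14.44 in WT (-0.79), and 14.11 and 14.17, then 14.02 and 14.00 in KO (-0.13), and was lower in KO at low density (-1.02). Its highest readings were those of WT at low density, as for the cluster H2A genes. H2afx, the variant phosphorylated at DNA breaks, whose message can end either way, read 13.98 and 13.74, then 13.45 and 13.22 in WT (-0.53), and 13.43 and 13.35, then 14.15 and 13.43 in KO. Its KO ratio of 0.40 had opposite signs on the arrays.

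H2afj gave different values by probe. The brighter read 16.59 and 16.48, then 15.48 and 15.85 in WT (-0.87), and 15.64 and 15.77, then 15.83 and 15.83 in KO (0.12), and the other gave 0.39 and -0.19. The brighter one, too, read highest in WT at low density. The macroH2A gene H2afy read 11.67 and 11.83, then 11.54 and 11.45 in WT, and 11.05 and 11.29, then 11.06 and 11.06 in KO. Its 3 probes ranged from -0.36 to 0.50 with density in WT and were not of one sign, and 1 of them was lower in KO at low density (-1.03).

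H2afy3, a transcribed pseudogene of the macroH2A family in current RefSeq, read 13.84 and 13.48, then 14.25 and 14.06 in WT (0.49), and 12.30 and 12.08, then 14.01 and 13.68 in KO (1.65). The KO low density culture stood below the other 3 conditions. H1f0, the linker histone known for non-dividing cells, read 11.54 and 11.64, then 11.03 and 10.95 in WT (-0.60), and 10.08 and 10.15, then 9.91 and 9.86 in KO (-0.23). Its other probes, dimmer, gave KO ratios of 0.39 and 0.70, so that the direction in KO differed by probe. It was lower in KO at both densities (-1.47 and -1.11), though its other probes reached 2-fold only at low density (-1.09 and -1.44, against -0.50 and -0.60 at high density).

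H1fx read 12.15 and 11.52, then 12.11 and 12.69 in WT (0.56), and 13.14 and 12.28, then 12.82 and 13.68 in KO (0.54), where the arrays differed in level but gave density ratios of 0.55 and 0.58 in WT and 0.54 and 0.53 in KO. H1foo, an oocyte linker histone, lay near background in every condition, at 6.54 and 6.45, then 6.46 and 6.66 in WT, and 6.73 and 6.52, then 6.53 and 6.82 in KO. H1fnt, of the testis, could be tested in no contrast, and H2afy2 had an outlier flag on 1 array and was tested only for density in WT (-0.03).

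A density effect common to both labels was tested with limma over the 2 dye-swap means, the only comparison with more than 1 culture on each side. No probe of 21546 passed an adjusted p of 0.05 (0.00%), and none of the 54 member probes did, while 29.7% of all probes and 11 of the 54 members had an unadjusted p under 0.05. Closest among the members were H3f3a, with a mean log2 ratio of 1.30 ± 0.165 (SE; limma adjusted p = 0.0719), and H2afv, with 1.13 ± 0.16 (limma adjusted p = 0.0762), each higher at high density in both labels.

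Genes that act on histone messages and proteins were compared through lists. Of 16 listed genes for transcription and 3' end processing of cluster messages, 14 were on the array and all were tested. In WT none rose and 2 fell, Lsm11 (-1.20), a subunit of the U7 snRNP that guides the cut, and Cstf2 (-1.04). The median was -0.31 (-0.47 and -0.11 from either WT array alone). Of all probes 7.63% rose and 5.71% fell in WT. In KO Lsm11 alone fell (-1.31), where 3.73% of all probes did, and the median was -0.14 (-0.28 and -0.05 from either KO array alone). Slbp, the stem-loop binding protein, was at -0.97 in WT and -0.24 in KO, and Npat, the coactivator of cluster gene transcription, at -0.45 and -0.20. Neither was called. Between the labels, Sympk, a scaffold of the processing complex, was lower in KO at low and high density (-1.49 and -1.36), as was Cstf2 (-1.23 and -1.06), and Casp8ap2 at low density (-1.03). These are 3 and 2 of 14, where 7.05% and 6.61% of all probes were lower. Without scaling between arrays 1 was lower at low density and 1 at high density.

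Of 24 listed histone chaperones 21 were on the array. In WT 5 fell and none rose, namely Chaf1b (-1.93) and Chaf1a (-1.60), the large subunits of CAF-1, which deposits new H3 and H4 behind the replication fork, Asf1b (-1.49), Npm3 (-1.43) and Nasp (-1.04). The 5 of 21 compare with 5.71% of all probes that fell and 7.63% that rose. Their median was -0.38. In KO Chaf1b alone fell (-1.04), where 3.73% of all probes did, and the median was -0.22. With 1 or the other KO array left out, 0 and 1 chaperones fell, with medians of -0.19 and -0.10. After median centring 3 fell, with a median of -0.46. Hira, which deposits H3.3, was at -0.49 in WT and -0.39 in KO. At low density Nasp (-2.04), Rbbp4 (-1.40), Chaf1b (-1.38) and Chaf1a (-1.17) were lower in KO, and at high density Nasp (-1.36) and Rbbp4 (-1.03), where 7.05% and 6.61% of all probes were lower. Without scaling between arrays 3 were lower and 1 higher at low density, and 1 lower and 1 higher at high density. Cenpa, the centromeric H3, outside the name rule, was at -0.94 in WT and -0.45 in KO.

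DNA replication genes moved with the falling cluster genes in WT. All 23 S phase genes on the array fell with density there (21 from 1 WT array alone), against 5.71% of all probes, with a median of -1.47 beside the H2A and H4 medians of -1.23 and -1.19. In KO 5 of the 23 fell (Mcm2, Mcm3, Cdc6, Cdt1 and Rrm2, and 9 after median centring), against 3.73%. The median was -0.68, where the H2A median was -0.23 and the H4 median 0.34. After median centring these came to -0.99, -0.57 and -0.06. Between labels at low density 18 (10 without scaling between arrays) were lower and 1, Rrm2, higher in KO, against 7.05% and 6.87% of all probes, with a median of -1.20. At high density Cdt1 and Mcm2 were lower and Rrm2 higher, near the 6.61% and 6.42% of all probes, with a median of -0.50. The H2B genes and Hist1h1c had the opposite sign to this list in WT and at low density. Whether a different share of cells in S phase plays a part in the histone values was not tested.

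**Figure D5:**
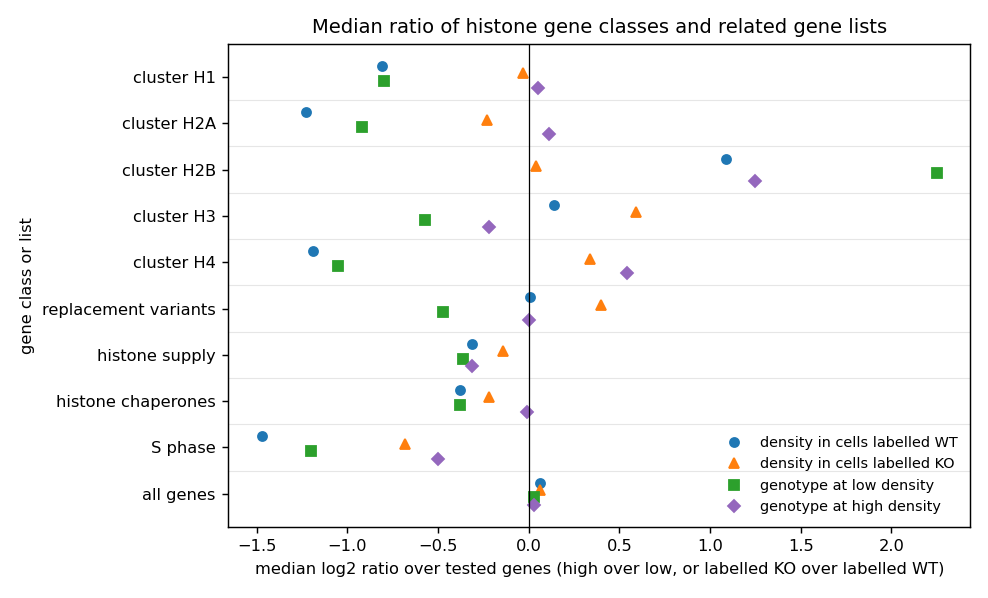
Median log2 ratio over tested genes (x axis) for the histone classes, the related gene lists and all genes tested, in each of 4 contrasts (high over low density, or labelled KO over labelled WT). S phase genes (-1.47) lie with H2A (-1.23) and H4 (-1.19) for density in WT, where H2B lies at 1.09, and all genes lie between 0.03 and 0.06; several KO medians turn sign under median centring (H4 0.34 to -0.06, H2B 0.04 to -0.35).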

How the data were processed

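Total RNA of MEFs at low and high density was labelled from an oligo-dT primer and hybridised to 4 two-colour Agilent whole mouse genome arrays, 2 per genotype label with exchanged dyes. Groups, densities and dyes were taken from the labels, where LAT2 stands in the source names and Lats2 in the genotype field, which was followed. Per the file headers, the authors extracted the scans with Agilent Feature Extraction 10.5.1.1, and the deposited files hold raw and background intensity per feature, a background-subtracted and dye-normalized processed intensity (used as an alternative), and a log10 ratio of Cy5 over Cy3. The deposited series matrix was found to repeat this log10 ratio in rounded form, turned to high over low density on swapped arrays, and was not used further. Quality flags, deposited as a score of 0 or 1, gave the probes well above background.

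Raw intensity was corrected with limma 3.58.1 (R 4.3.3) by normexp with an offset of 50, which makes ratios of dim probes smaller, then normalized by loess within arrays and, for levels and contrasts between labels, by Aquantile. Ratios were averaged over the dye swap. Positions of probes came from the array annotation (mm8), and probes were not assigned to exons. All 48 genes matched RefSeq names. Promoters are of GRCm38.p6, and motifs were searched in the 250 bases before each start.

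Since each label and density has 1 replicate, differences within or between labels have no test and were read by the size rule. The one test was limma over the dye-swap means, with Benjamini-Hochberg adjustment over 21546 probes. The size rule and this test were checked on simulated data. Other analysis used Python 3.11.15 with numpy 2.4.6 and pandas 2.3.3. Over the member probes tested, the SD of an array's deviation from the mean of both arrays was 0.117 for density in WT and 0.154 in KO. The number of arrays limits the precision. Values in every channel are given for the replacement variants tested throughout and for the cluster genes with the 5 largest and 5 smallest ratios in each of 4 contrasts. Members and lists were chosen with earlier results of these data known. Alternatives were the offset, the processed intensity, median centring, the filter on dim probes, the size, the scaling between arrays, the mean over probes of a gene and leaving out each array.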

Additional observations from a re-analysis of the deposited data

Results flagged for a closer look

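At 8 probes called for density in at least 1 label, the ratio had one sign on both arrays labelled WT and the opposite sign on both arrays labelled KO. In each of the 8, the ratio was negative in WT and positive in KO. Probes called in neither label were left out, and some of those with opposite signs went the other way. The difference, KO minus WT, was 1.66 for Hist1h4f, 1.63 and 1.57 for the probes of Hist1h4d, 1.46 for Hist2h4 and 1.42 for Hist1h4a, all H4 genes. It was 1.52 for the brighter probe of Hist1h2af, 1.38 for Hist1h2aa and 1.17 for 1 probe of Hist2h2ac, all H2A genes. The difference was not tested, since each label has 1 replicate. The KO ratios themselves were small, from 0.07 to 0.47, and none was called. The opposite sign depends on the scaling, as after median centring 7 of the 8 KO ratios lay below 0, and they ranged from -0.60 to 0.01.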

How the results depend on the processing

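No called histone probe, and none of the called genes of the 3 related lists, changed sign under the alternatives run. The filters and the size do not change a ratio, and a density call already needs the same sign on both arrays. For density, only the offset, the processed signals and median centring could therefore have turned the sign of a called probe. For single members, 1893 of 2638 recomputed values stayed within the technical spread and 745 moved further. Part of the 1893 was fixed in advance. The filters leave the ratio of a probe as it is, and leaving out 1 array in a density contrast cannot move it beyond this spread. Between the labels, leaving out 1 array leaves the dyes unbalanced. At a 1.4-fold size, 40 members were called for density in WT, 19 in KO, 46 for genotype at low density, 25 at high density and 37 for the difference. The share of all probes called at that size was not computed, so these counts are not a result about the histone genes. With the processed signals 14 were called for density in KO and with median centring 5, against 20.5% and 10.8% of all probes. Without scaling between arrays 17 were called at low density, against 15.7% of all probes. The medians of H2A, H2B and H4 were added after the values were seen.

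Density in WT: the cluster median moved to -0.87 (median centring), -0.12 (no filter on dim probes) and -0.33 (mean over probes), and the replacement median to -0.16 (processed signals). H2A moved to -1.50, H2B to 0.90 and H4 to -1.43 (median centring), H2B to 0.92 (no filter) and H4 to -1.14 (processed signals). Leaving out an array gave H4 medians of -1.19 to -1.17. Density in KO, median centring: cluster -0.35, replacement 0.11, H2A -0.57, H2B -0.35 and H4 -0.06, and with an array left out cluster -0.14 to 0.15, replacement 0.19 to 0.53, H2A -0.23 to -0.17, H2B -0.14 to 0.26 and H4 0.16 to 0.52.

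Genotype at low density: the cluster median moved to -0.41 (median centring), -0.63 (well above background in every channel), -0.34 (no filter), -0.06 (mean over probes), -0.28 (no scaling) and -0.48 (quantile over single channels), and to -0.53 to -0.51 with an array left out. H2B moved to 2.35 (processed signals and median centring alike), 1.59 (no filter), 2.15 (mean over probes) and 2.53 (no scaling). Without scaling H2A was -0.62, H4 -0.79 and the replacement median -0.20, and with an array left out the last was -0.67 to -0.45.

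Genotype at high density: the cluster median moved to 0.43 (processed signals), 0.17 (median centring) and 0.49 (no scaling), and to 0.19 to 0.35 with an array left out. The replacement median moved to -0.20 (median centring) and 0.22 (no scaling), and to -0.27 to -0.02. H2A moved to 0.16 (processed signals and mean over probes alike), -0.01 (median centring), 0.14 (no filter), 0.39 (no scaling) and 0.09 (quantile), and to 0.03 to 0.19. Without scaling H2B was 1.52 and H4 0.81, and with an array left out 1.05 to 1.44 and 0.36 to 0.65.

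Difference: the cluster median moved to 0.64 (offset of 16), 0.65 (processed signals), 0.43 (median centring), 0.42 (no filter) and 0.46 (mean over probes), and to 0.57 to 0.60 with an array left out. The replacement median moved to 0.40, 0.09, 0.26 and 0.21 (processed signals, median centring, no filter, mean over probes) and to 0.29 to 0.37. H2A moved to 0.92 and H2B to -1.26 (median centring), and H2B to -0.73 (no filter), and with an array left out they were 0.96 to 1.29 and -1.25 to -0.86. The cause of these moves was not tested.

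In the limma test, 3 of 21546 probes passed with median centring, none of them a member, and 0 of 40998 without the filter, where 8118 had an unadjusted p under 0.05. Members near background, such as Hist1h1t and Hist1h2be, have no usable ratio at this signal. Density ratios were taken within arrays, where both densities of a label were hybridised together. Between the labels no paired analysis was possible because no label ties a KO culture to a WT culture.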
